A study of Mus musculus with 4 samples.

Results

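Ferroptosis is a form of cell death in which iron-driven peroxidation of polyunsaturated membrane phospholipids outruns its repair. The 10 genes described here are its core defences and suppliers, with ACSL3 beside them, chosen by function. The defences are cystine import (Slc7a11, Slc3a2), the lipid peroxide reductase GPX4, and the parallel FSP1 (encoded by Aifm2), GCH1 and DHODH. The lipid and electron supply runs through ACSL4, LPCAT3 and POR, while ACSL3 activates monounsaturated fatty acids. Each symbol matched 1 Ensembl identifier, so the set holds 10 of the 55487 genes in the deposited count table.

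GPX4 is a selenoprotein that reduces phospholipid hydroperoxides with glutathione, which cells build from imported cystine or, in hepatocytes, also from methionine by transsulfuration. FSP1 regenerates reduced coenzyme Q at membranes, GCH1 starts the synthesis of tetrahydrobiopterin, and DHODH reduces coenzyme Q in the inner mitochondrial membrane. ACSL4 activates arachidonic and adrenic acid, LPCAT3 places such acyl chains into phospholipids, and the cytochrome P450 reductase POR passes electrons that can feed peroxidation.

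Bulk hepatocellular carcinoma tissue was sequenced from 4 mice of a spontaneous liver tumour model driven by c-Myc, named Alb-cre H11-myc in the study's title. The labels give 2 mice as Tfrc knockout in the liver and 2 as wild type, and the study asked how Tfrc, the transferrin receptor, shapes the tumour microenvironment. The albumin promoter is active in hepatocytes, so other cells of a knockout tumour can keep Tfrc. The labels give no age, sex or deleted exons, and do not say which of these alleles the wild type mice carry beyond what the title names.

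Total counts ranged from 15918349 to 17052943 per library. Tfrc had 334 and 205 CPM (library-size scaled counts, with TMM factors applied) in the libraries labelled knockout, against 460 and 234 CPM in wild type, so the groups overlapped and Tfrc did not check the labels. Mitochondrial transcripts took 9.8% and 16.63% of counts in the libraries labelled knockout, against 8.69% and 4.13% in wild type. Wild type replicate 2 stood apart on the first principal component, at 86.6 against values from -38.5 to -11.2 for the other libraries. Hepatocyte markers, 8 genes including Alb and Hnf4a, were all present and summed to 41138 and 34481 CPM in the libraries labelled knockout, against 15871 and 55872 CPM in wild type.

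The set spanned a wide range of levels, with Por and Gpx4 highest and Slc7a11 lowest in both groups. Levels are compared between genes in FPKM, which divides by gene length. In the libraries labelled knockout the mean order was Por at 33.6 ± 6.05 FPKM, Gpx4 at 26.7 ± 11.2, Lpcat3 at 16.6 ± 3.63, Slc3a2 at 12.03 ± 0.693, Aifm2 at 11.8 ± 3.04, Acsl4 at 10.2 ± 1.83, Gch1 at 6.70 ± 0.451, Acsl3 at 5.97 ± 0.519, Dhodh at 3.17 ± 0.326 and Slc7a11 at 0.115 ± 0.0861 FPKM (SD, n = 2). In wild type it was Por at 58.8 ± 8.04 FPKM, Gpx4 at 50.6 ± 6.14, Lpcat3 at 17.3 ± 2.98, Aifm2 at 12.7 ± 2.94, Slc3a2 at 11.8 ± 0.822, Acsl4 at 10.8 ± 4.79, Gch1 at 9.34 ± 3.55, Acsl3 at 7.12 ± 2.67, Dhodh at 2.51 ± 1.04 and Slc7a11 at 0.0798 ± 0.00862 FPKM (SD, n = 2).

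Many neighbours in that order could not be told apart by their libraries. In the libraries labelled knockout Por overlapped Gpx4, Gpx4 overlapped Lpcat3, and Slc3a2, Aifm2 and Acsl4 ran into each other. In wild type Por overlapped Gpx4, and Aifm2, Slc3a2, Acsl4, Gch1 and Acsl3 formed a chain of overlapping neighbours. The lengths behind the deposited FPKM were 1.01 to 1.88 times the summed exons of GENCODE M21, and with the latter Gpx4 stood above Por, at 43.4 and 42.4 FPKM in the libraries labelled knockout and 82.3 and 74.1 FPKM in wild type.

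**Figure D1:**
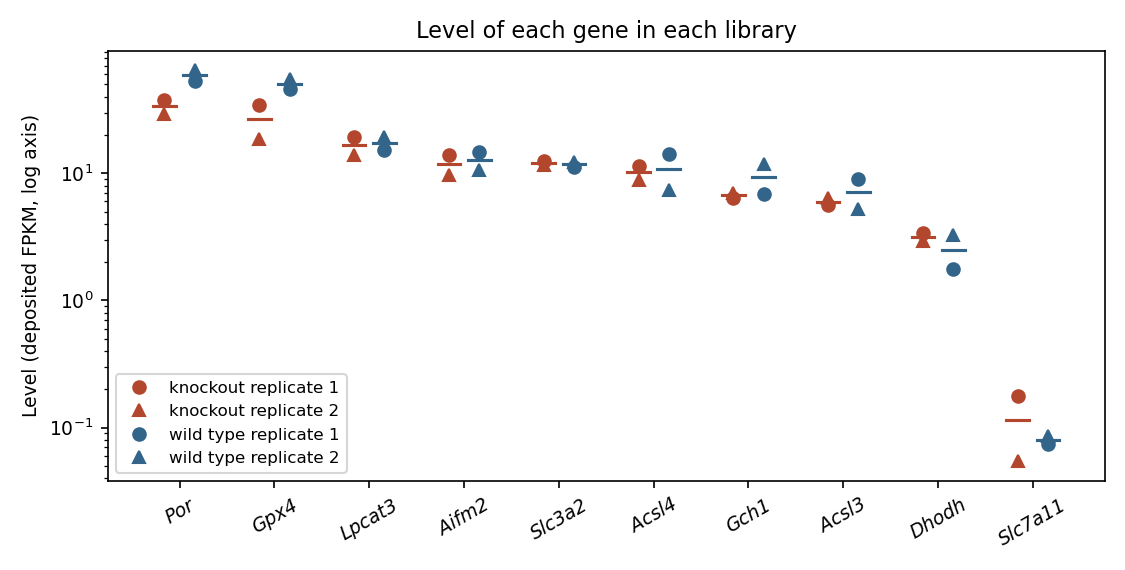
Deposited FPKM on a log axis for each of the 10 genes in each library, with knockout in red left of wild type in blue, circles for replicate 1, triangles for replicate 2 and bars for group means. Por and Gpx4 lie highest, with both knockout points below both wild type points, and Slc7a11 lies below 0.2 FPKM in all 4 libraries.

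The Gpx4 values rest on a minority of the reads that match its sequence. GENCODE M21 places a transcribed processed pseudogene, Gpx4-ps2, at chr10:45875291-45876086 (mm10, plus strand), away from Gpx4 at chr10:80047166-80056439 (plus strand). Over 762 aligned bases, the 959-base transcript Gpx4-202 and the pseudogene differ at 2 positions, C204T and C519T, counted from the first base of the Gpx4-202 start codon with the Gpx4 base first. Both fall on the third base of a codon and leave the amino acid unchanged. The selenocysteine of GPX4 is read from a TGA codon at chr10:80054737-80054739, codon 73 of the 197 in Gpx4-202, and the pseudogene keeps it. The stretch around it is shown because it contains C204T, the nearer of the differences that could assign a read. Coding bases 187 to 249 follow, from the GENCODE transcripts, with the TGA codon and the differing base in capitals.
Gpx4: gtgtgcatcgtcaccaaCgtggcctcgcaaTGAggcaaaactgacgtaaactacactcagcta
Gpx4-ps2: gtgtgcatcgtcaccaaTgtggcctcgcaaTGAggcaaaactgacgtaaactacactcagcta

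The pseudogene received more counts than the gene in every library. Gpx4-ps2 had 5947 and 5218 counts in the libraries labelled knockout, against 8700 and 11386 in wild type. Gpx4 itself had 1545 and 863 counts in the libraries labelled knockout, against 2129 and 2627 in wild type. Gpx4 thus held 20.6% (95% Wilson interval 19.7 to 21.6) and 14.2% (13.3 to 15.1) of the pair's counts in knockout replicates 1 and 2, against 19.7% (18.9 to 20.4) and 18.7% (18.1 to 19.4) in wild type replicates 1 and 2. Knockout replicate 2 had the lowest share, and the intervals cover counting error only. No label or file header says how reads that match both places were counted, so the split between gene and pseudogene is uncertain.

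**Figure D2:**
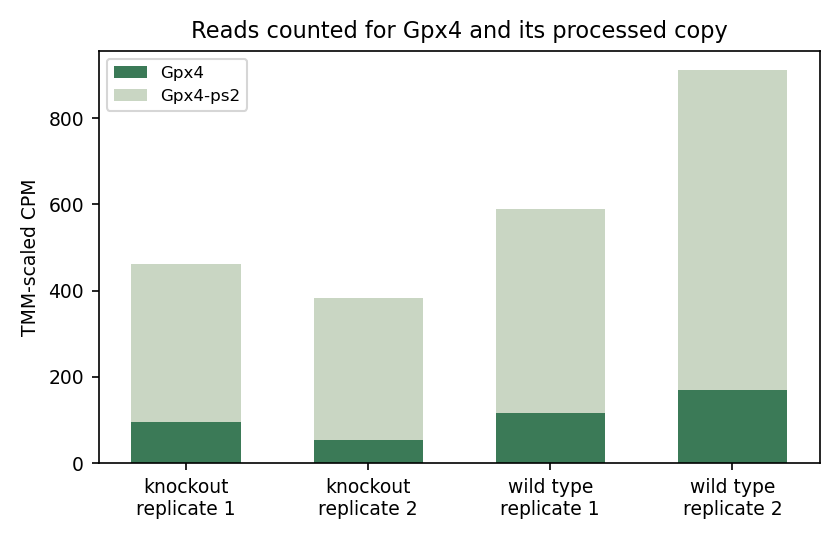
Stacked bars of TMM-scaled CPM per library for Gpx4 (dark) and its processed copy Gpx4-ps2 (light), knockout left of wild type. The summed bars reach 462 and 384 CPM in knockout and 590 and 910 CPM in wild type, and the dark part is the smaller in each.

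Gpx4 stood lower in both libraries labelled knockout, on its own and together with its copy. It had 95.3 and 54.4 CPM in knockout, against 116 and 171 CPM in wild type, and the groups did not overlap. This was a 1.91-fold lower level, -0.94 on the log2 scale with a standard error (SE) of 0.39 and a 95% interval of -1.85 to -0.02. It did not pass the threshold of 0.05 by edgeR's quasi-likelihood test adjusted over all 16310 tested genes (adjusted p = 0.597, unadjusted p = 0.0467). Gpx4-ps2 had 367 and 329 CPM in knockout, against 474 and 740 CPM in wild type, a log2 fold change of -0.80 (SE 0.39, edgeR adjusted p = 0.631), or -0.45 without wild type replicate 2. Refitted with both counts summed, which was chosen after seeing the data, the pair averaged 423 ± 55.6 CPM in knockout and 750 ± 227 CPM in wild type (SD, n = 2 each), with a log2 fold change of -0.83 (95% interval -1.78 to 0.13, edgeR adjusted p = 0.631). Gene, copy and sum were all lower, and none of the 3 passed. They are not separate observations, since the sum follows from its parts and the split of shared reads is uncertain.

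Por, the other member with separate groups, also stood lower in the libraries labelled knockout. It had 189 and 154 CPM in knockout, against 241 and 362 CPM in wild type. This 1.76-fold lower level, -0.81 on the log2 scale with a standard error of 0.35 and a 95% interval of -1.66 to 0.03, did not pass (edgeR adjusted p = 0.61). There were 0.505 and 0.353 Gpx4 counts per Por count in knockout, against 0.482 and 0.472 in wild type, with knockout replicate 2 the lowest, as it was for the Gpx4 share of the pair. Set against Lpcat3 in the same library, a ratio that needs no scaling between libraries, Gpx4 stood at 0.828 and 0.613 in knockout and 1.39 and 1.29 in wild type. Por stood at 1.64 and 1.73 Por counts per Lpcat3 count in knockout and 2.89 and 2.74 in wild type. Both ratios separated the groups. Per Acsl4 count the groups also separated, but with wild type replicate 1 close to knockout. Gpx4 stood at 1.325 and 0.926 per Acsl4 count in knockout and 1.43 and 3.26 in wild type. Por stood at 2.62 and 2.62 in knockout and 2.97 and 6.92 in wild type. With 2 libraries against 2, an exact permutation test cannot go below a two-sided p of 0.333, so none was used, and Lpcat3 was chosen as the denominator after its values were seen.

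Summed markers of several other cell types also differed between the groups without overlap, though none of these sums was tested. Beside the marker counts that follow, both knockout libraries lay below both wild type libraries for 20.1% of all tested genes and above for 21.9%. In the libraries labelled knockout, against wild type, macrophage and Kupffer cell markers summed to 393 and 261 against 704 and 1046 CPM, with both knockout libraries lower for 6 of 10 markers, and erythroid markers to 212 and 150 against 957 and 2172 CPM, lower for 6 of 7. Neutrophil markers summed to 13.4 and 14.6 CPM in knockout and 24.2 and 63.5 CPM in wild type (lower for 5 of 6, with Ly6g at 0 counts in all libraries). Endothelial markers summed to 135 and 130 CPM in knockout and 170 and 218 CPM in wild type, and stellate cell and fibroblast markers to 638 and 1173 CPM in knockout and 1412 and 1229 CPM in wild type, each with 4 of 8 markers lower. Bile duct and progenitor markers ran the other way, at 1070 and 1126 CPM in knockout and 415 and 974 CPM in wild type, higher for 1 of 6. The summed markers of T and NK cells ranged from 16.1 to 18.9 CPM in knockout and from 11.3 to 26.3 CPM in wild type, and those of B and plasma cells from 5.55 to 8.51 CPM in knockout and from 4.22 to 5.66 CPM in wild type, and both overlapped. The part of these shifts, or of the mitochondrial share above, in the Gpx4 and Por values was not tested, and in bulk tissue fewer cells of a type and less RNA per cell cannot be told apart.

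Slc7a11 encodes the cystine-glutamate exchanger xCT, and Slc3a2 its heavy chain partner 4F2hc, which also serves other amino acid transporters. Slc7a11 had only 44 and 14 counts in the libraries labelled knockout, against 19 and 23 in wild type, or 2.71 and 0.883 CPM against 1.03 and 1.49 CPM. The 2 knockout libraries lay on either side of both wild type libraries. The log2 fold change of 0.51 had an interval from -1.22 to 2.24 (edgeR adjusted p = 0.857). A change of 2-fold in either direction was therefore not resolved with these few counts and 2 mice per group. A stretch of 373 bases in an annotated Slc7a11 transcript matches the tubulin gene Tuba1b at 96.2% identity, and Tuba1b had 7734 to 18207 counts per library, so even these few reads are uncertain.

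Slc3a2 was abundant and nearly level. It had 81.6 and 79.3 CPM in the libraries labelled knockout, against 66.4 and 90.9 CPM in wild type, with the knockout libraries inside the wild type range. Its log2 fold change was 0.03 (SE 0.30, interval -0.68 to 0.75). There were 30.1 and 89.9 Slc3a2 counts for each Slc7a11 count in knockout, against 64.2 and 60.8 in wild type, ratios that rest on the few Slc7a11 reads.

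Promoter windows from RefSeq (GRCm38.p6, 250 bases before to 50 after a transcript start) were found for 9 of the 10 genes, 12 windows in all, and not for Dhodh. They were searched on both strands for the antioxidant response element core TGACNNNGC, the CEBP-ATF response element TGATGNAA, the CCAAT box and the E-box CACGTG. Of 32851 mouse windows of this length, 12.4% hold the first, 3.97% the second, 37.4% the third and 7.15% the fourth. The first and the fourth matched 0 of the 12 windows. The CEBP-ATF response element matched only the Slc7a11 window, in 2 places of opposite orientation, 66 to 59 and 47 to 40 bases before the start. The CCAAT box was in 7 windows, those of Slc7a11, Gch1, Acsl3 and Lpcat3 and 3 of the 4 Gpx4 windows, of which 2 overlap and hold the same 3 boxes. The windows of Slc7a11 and of a Gpx4 start with 3 CCAAT boxes are shown, because these genes are the least abundant of the set and the one with the lowest log2 fold change, with all matches in capitals. A match is a description of the letters and not evidence of binding.
Slc7a11 (chr3:50443564-50443863, minus strand): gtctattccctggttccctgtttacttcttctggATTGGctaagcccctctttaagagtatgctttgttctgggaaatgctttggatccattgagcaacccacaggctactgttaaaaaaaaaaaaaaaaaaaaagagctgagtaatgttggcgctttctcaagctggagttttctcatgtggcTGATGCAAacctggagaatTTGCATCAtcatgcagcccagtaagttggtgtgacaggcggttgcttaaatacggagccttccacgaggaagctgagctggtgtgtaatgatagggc
Gpx4 (chr10:80053315-80053614, plus strand): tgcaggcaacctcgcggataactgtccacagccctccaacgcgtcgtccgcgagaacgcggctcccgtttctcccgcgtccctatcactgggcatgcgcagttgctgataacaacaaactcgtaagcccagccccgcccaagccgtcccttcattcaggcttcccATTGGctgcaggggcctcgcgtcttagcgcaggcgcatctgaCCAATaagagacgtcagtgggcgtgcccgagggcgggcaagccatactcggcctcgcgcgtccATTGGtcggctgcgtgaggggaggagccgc

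The defences that act beside GPX4 had overlapping groups. Aifm2 had 69.1 and 50.5 CPM in the libraries labelled knockout, against 66.7 and 59.5 CPM in wild type (log2 fold change -0.08, SE 0.31, interval -0.80 to 0.65). Gch1 had 39.4 and 45.7 CPM in knockout, against 38.4 and 82.5 CPM in wild type (log2 fold change -0.51, SE 0.41, interval -1.48 to 0.46). Dhodh had 32.5 and 29.6 CPM in knockout, against 15.5 and 35.0 CPM in wild type (log2 fold change 0.30, SE 0.43, interval -0.73 to 1.33). For Gch1 and Dhodh the wild type mice differed from each other by 1.10 and 1.17 on the log2 scale, more than the groups did, with wild type replicate 2 the higher in both. Exons of Aifm2 overlap H2afy2 on the opposite strand over 233 bases, and H2afy2 had 21 to 56 counts per library.

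Lipid activation and remodelling genes overlapped as well. Acsl4 had 71.9 and 58.8 CPM in the libraries labelled knockout, against 80.9 and 52.3 CPM in wild type, with a log2 fold change of -0.03 (SE 0.33, interval -0.82 to 0.76). Acsl3, which activates monounsaturated fatty acids, had 35.5 and 42.4 CPM in knockout, against 52.0 and 37.4 CPM in wild type (log2 fold change -0.20, SE 0.32, interval -0.95 to 0.55). Lpcat3 had 115 and 88.8 CPM in knockout, against 83.4 and 132 CPM in wild type (log2 fold change -0.08, SE 0.35, interval -0.90 to 0.74). For Acsl4 and Lpcat3 the wild type mice lay outside the knockout range on both sides, and the higher wild type mouse was replicate 1 for Acsl4 and Acsl3 and replicate 2 for Lpcat3. Lpcat3 shares 334 exon bases with Emg1 on the opposite strand, which had 1262 to 2208 counts per library, and Acsl3 shares 244 with Utp14b on the same strand, so these counts may be mixed.

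Across the set, 0 of the 10 genes passed edgeR's threshold, as did 0% of all 16310 tested genes, and 1 of 10 had an unadjusted p under 0.05, on the lower side, against 8.3% of all genes (3.95% higher and 4.35% lower). DESeq2 called 0 of the 10 and 0.907% of all genes, and limma-voom 0 of the 10 and 0.00613% of all genes. All 10 genes entered the test. Both libraries labelled knockout lay below both wild type libraries for 2 of the 10, against 20.1% of all genes, and above for 0, against 21.9% (2 of 10 in either direction, against 42%). Of the 10 log2 fold changes 3 were positive, against 50.4% of all genes, and their median was -0.08, against 0.01 for all genes. The share below lies at the background, and with 10 genes the others are counts of a few.

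**Figure D3:**
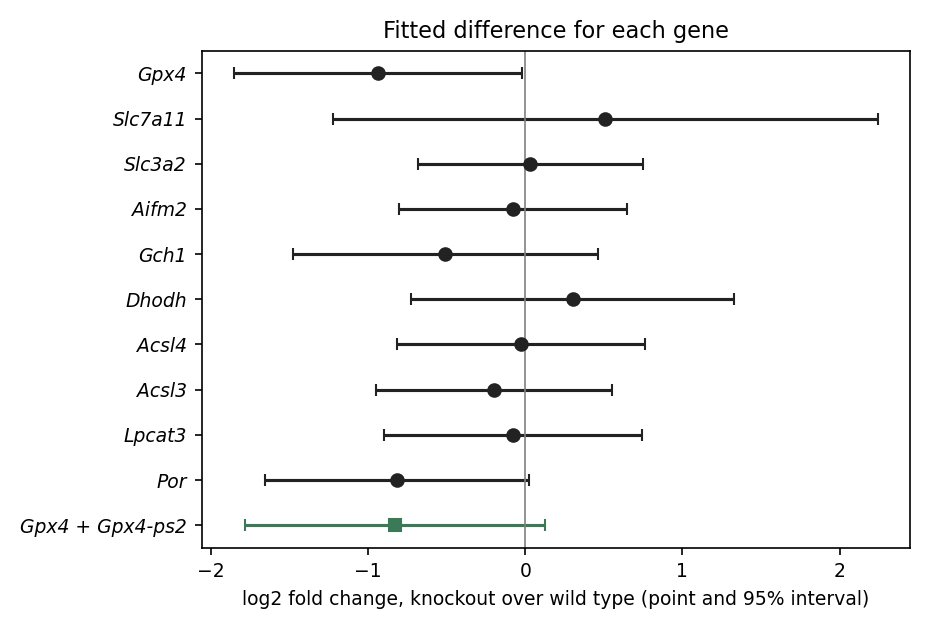
Fitted log2 fold change of knockout over wild type for each of the 10 genes, with 95% intervals, and in green for Gpx4 and Gpx4-ps2 summed. Among the 10 genes fitted singly, the interval of Gpx4 alone lies below 0, ending at -0.02, and that of Por ends at 0.03.

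Differences between mice of the same label were as large as those between labels for most of the set. The wild type mice differed from each other by more than the group means in 8 of the 10 genes, all but Gpx4 and Por, against 61% of all tested genes, on the log2 CPM scale. With each library left out in turn, the log2 fold change of those 8 genes turned sign at least once. Gpx4 ranged from -1.43 to -0.59 and Por from -1.12 to -0.49. Groups that do not overlap keep their direction when a library is left out. The kept sign of Gpx4 and Por therefore only restates their separation. Without wild type replicate 2 Gpx4 was at -0.63 and Por at -0.49, and without knockout replicate 1 Gpx4 was at -1.43. Gch1 turned to 0.15 without wild type replicate 2 and Dhodh reached 1.01, against -0.99 and -0.21 without wild type replicate 1.

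**Figure D4:**
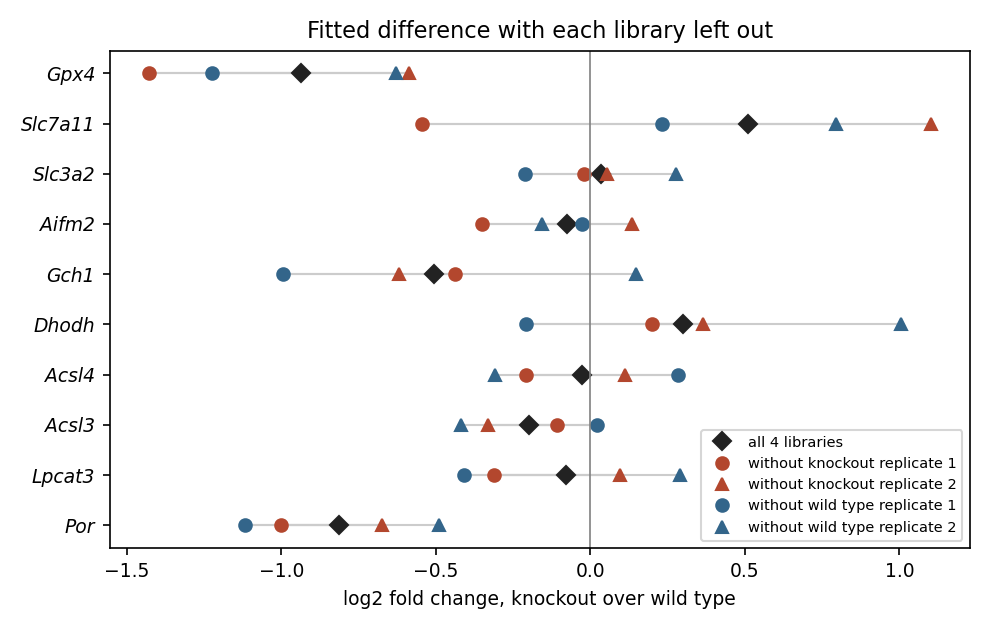
Fitted log2 fold change of knockout over wild type with all 4 libraries (black diamonds) and with each library left out (red for knockout, blue for wild type, circles for replicate 1 and triangles for replicate 2). Gpx4, between -1.43 and -0.59, and Por stay below 0, as genes whose groups do not overlap must. The other 8 genes cross 0.

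Around the core set, 87 genes in 8 functional lists were read from the same fit. Of these 79 were tested, 0 passed edgeR's threshold in either direction (smallest adjusted p = 0.545), and 6 had an unadjusted p under 0.05, against 8.3% of all genes. Both libraries labelled knockout lay above both wild type libraries for 13 of the 79 and below for 21, against 21.9% and 20.1% of all genes, shares that also stand behind the counts of each list below. DESeq2 called Ggt1 and Gchfr among the 24 genes named below, and 0.907% of all genes. The 24 were picked by the smallest p of each list in these same data, so their calls are not comparable with that share.

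Genes of tetrahydrobiopterin synthesis and recycling, the pathway GCH1 opens, were below in knockout for 3 of 7 tested, against 20.1% of all genes, and above for 0, against 21.9%, with a list median of -0.05. Gchfr, which encodes the feedback regulator that binds GCH1, had 32.0 and 44.0 CPM in the libraries labelled knockout, against 81.3 and 125 CPM in wild type. Its log2 fold change of -1.44 (SE 0.35) had an edgeR adjusted p of 0.545 and a DESeq2 adjusted p of 0.0462. With each library left out the log2 fold change ranged from -1.75 to -1.10, its sign being fixed because the groups did not overlap. Spr, sepiapterin reductase of the last step, had 79.0 and 61.6 CPM in knockout, against 104 and 126 CPM in wild type, a log2 fold change of -0.71. Pcbd2, a pterin dehydratase, was at -0.33.

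Of 12 glutathione genes, both knockout libraries lay above wild type for 3 and below for 2 (median 0.07). Ggt1, the gamma-glutamyltransferase that breaks down extracellular glutathione, had 88.8 and 21.5 CPM in the libraries labelled knockout, against 2.23 and 6.95 CPM in wild type. The log2 fold change was 3.59 (SE 0.82, edgeR adjusted p = 0.545, DESeq2 adjusted p = 0.000264), and 2.19 without knockout replicate 1. Gclc, the catalytic subunit of the rate-limiting ligase, had 299 and 331 CPM in knockout, against 203 and 204 CPM in wild type, a log2 fold change of 0.63 that did not pass. The transsulfuration gene Cbs had 166 and 139 CPM in knockout, against 184 and 244 CPM in wild type (log2 fold change -0.49; -0.27 without wild type replicate 2).

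The selenoprotein list joins genes of selenocysteine synthesis and insertion with selenium supply and other selenoproteins, and its genes were above in knockout for 2 of 12, against 21.9% of all genes, and below for 3, against 20.1% (median -0.14). The selenocysteine lyase gene Scly had 84.3 and 109 CPM in the libraries labelled knockout, against 128 and 223 CPM in wild type (log2 fold change -0.86; -0.41 without wild type replicate 2). Secisbp2, which binds the selenocysteine insertion element of the mRNA, had 27.1 and 31.2 CPM in knockout, against 15.7 and 19.0 CPM in wild type (log2 fold change 0.75). The selenoprotein P receptor gene Lrp8 was at 0.84, and 0.22 without knockout replicate 1. None passed.

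The coenzyme Q list joins genes that make the quinone FSP1 and DHODH reduce with others such as Nqo1. Its genes were below in knockout for 5 of 13, Nqo1 included, against 20.1% of all genes. They were above for 2, against 21.9% (median -0.22). The coenzyme Q synthesis genes Coq8a and Coq4 had log2 fold changes of -0.65 and -0.73, Coq8a with 259 and 254 CPM in the libraries labelled knockout, against 388 and 419 CPM in wild type. Coq4 shares 921 exon bases with Trub2, and Coq8a 366 with Cdc42bpa, each on the opposite strand. The quinone reductase gene Nqo1 was low throughout, with 0.0617 and 2.59 CPM in knockout, against 7.46 and 4.09 CPM in wild type. In the pyrimidine list around DHODH, 2 of 6 were below and 0 above. Its kinase gene Uck1 had 48.2 and 46.7 CPM in knockout, against 76.6 and 95.9 CPM in wild type (log2 fold change -0.86) beside a 99.3% identical copy, Gm4482, with 28 to 105 counts per library, Umps was at -0.32 and Cmpk1 at 0.27, or 0.09 without knockout replicate 1.

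Among 14 tested genes of polyunsaturated lipid supply, both knockout libraries were above wild type for 3 and below for 2 (median 0.20). Elovl5, which elongates polyunsaturated fatty acids, had 269 and 250 CPM in the libraries labelled knockout, against 118 and 169 CPM in wild type (log2 fold change 0.86, SE 0.33, edgeR adjusted p = 0.591). The lysophospholipid acyltransferase genes Lpcat2 and Lpcat4 stood at -1.84 and -0.97 on the log2 scale. Lpcat2 was at -0.86 without wild type replicate 1. Lpcat4 was at -1.54 without wild type replicate 1 and at -0.13 without wild type replicate 2. In the monounsaturated list, of which 4 were tested, 2 were above and 1 below. Scd1, the stearoyl-CoA desaturase, had 3545 and 2481 CPM in knockout, against 2064 and 1367 CPM in wild type. Srebf1 was at 0.52 and the acyltransferase gene Mboat1 at -1.88, and none of these genes passed. Mboat1 rests on few reads, with 8 and 25 counts in knockout, against 94 and 39 in wild type. Mboat1 was at -2.94 without knockout replicate 2, Srebf1 at 0.30 without wild type replicate 1 and Scd1, 0.81 with all libraries, at 0.50 without knockout replicate 1.

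Of 17 peroxidation enzymes and regulators, 11 were tested, 1 was above and 3 below in knockout (median -0.21). The lipoxygenase genes Alox5, Alox12, Alox12b and Aloxe3 were too low to be tested. Alox15 was also not tested, with 118 and 0 counts in knockout replicates 1 and 2, against 2 and 0 in wild type. Pebp1, a lipoxygenase-binding protein in human cells, had 336 and 332 CPM in the libraries labelled knockout, against 435 and 666 CPM in wild type (log2 fold change -0.72; -0.38 without wild type replicate 2). Its counts are uncertain, since the copies Gm9824 and Gm10819 are 98.9% identical over 561 bases and 99.1% identical over 564 bases. Gm9824 had 583 to 2084 counts per library and Gm10819 had 423 to 1501. The leukotriene pathway gene Alox5ap and the cytochrome b5 reductase gene Cyb5r3 were at -0.92 and -0.36. Alox5ap was at -1.56 without knockout replicate 1 and -0.50 without knockout replicate 2, and Cyb5r3 at -0.23 without wild type replicate 2.

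**Figure D5:**
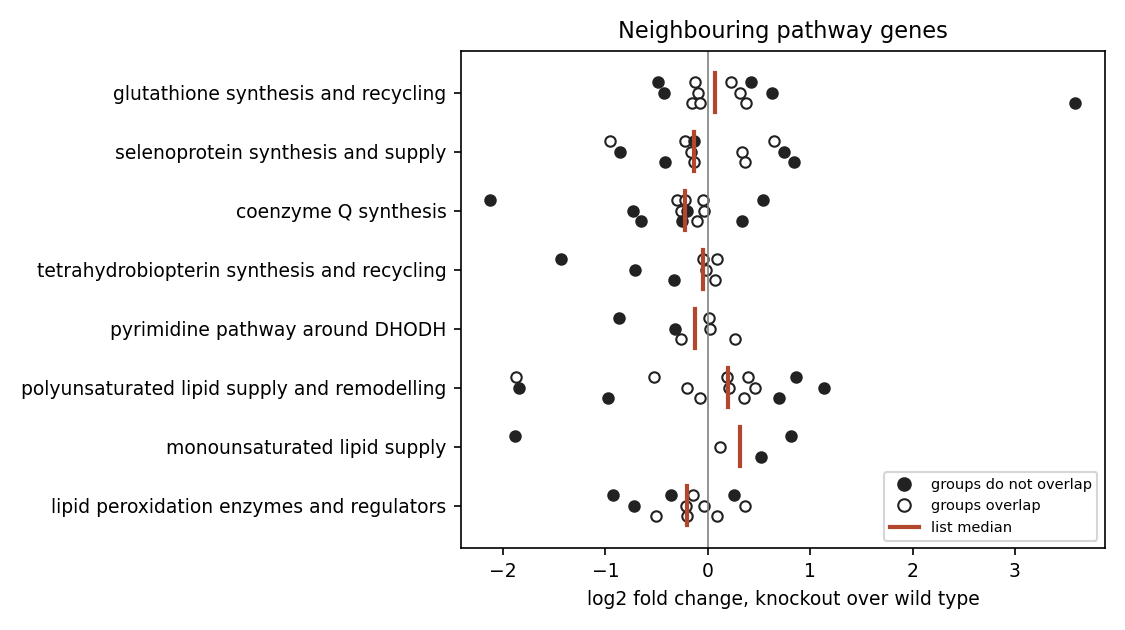
Log2 fold change of knockout over wild type for each tested gene of the 8 neighbouring lists, filled where the libraries of the groups do not overlap, open where they do, with the list median in red. Ggt1 in the glutathione list lies farthest right, at 3.59.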

How the data were processed

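Poly(A) RNA-seq libraries of 4 tumours were analysed. The authors deposited raw counts and FPKM per gene. Per the submitters' processing notes, mm10 was the build and the tools were StringTie, HISAT2, edgeR and SAMtools 1.3.1, with no roles stated. The deposited FPKM equalled the count divided by a fixed length and the column total within 1% for 100% of 14371 genes with at least 10 counts in each library, so only counts were tested.

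Symbols came from GENCODE M21 (55141 of 55487 identifiers matched). The edgeR (4.0.16, R 4.3.3) quasi-likelihood test was run after filterByExpr and TMM scaling, two-sided, with Benjamini-Hochberg adjustment over 16310 genes. A floor of 3 counts is 0.176 to 0.188 CPM per library. The mice are separate animals. With 2 per group the spread is largely pooled over genes. No source states whether counting used strand.

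The alternatives were other scalings, filters and tools (DESeq2 1.42.0, limma-voom 3.58.1), a replicate block and leaving out each library, a fit that lets a lone sample take the spread of the other group. The fit was tested on simulated data, where it recovered no change of 2-fold, a minority of 4-fold and most, not all, of 8-fold. A gene that did not pass can therefore still differ by 2-fold or more. Copies of each gene were searched with blastn 2.17.0 at 95% identity over at least 200 bases. The members and lists were chosen with earlier results of these data known. Named pathway genes are the up to 3 tested genes per list with the smallest p and a mean of at least 1 CPM. Those not past the threshold are given as values.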

Additional observations from a re-analysis of the deposited data

How the results depend on the processing

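None of the 10 genes passed the threshold under any alternative, with a smallest adjusted p of 0.0821, for Gch1 without wild type replicate 1. Over all genes, in place of 0 higher and 0 lower, DESeq2 called 63 higher and 85 lower, library totals 0 and 1, limma-voom 0 and 1, and the replicate block 2 and 2. With a library left out the count higher ranged from 0 to 209 and the count lower from 0 to 200, the most without wild type replicate 1 and 29 and 39 without wild type replicate 2. The number of the 10 genes with a positive log2 fold change ranged from 1 to 6 and their median log2 fold change from -0.33 to 0.075. The mice share only a number across groups (correlation of the deviations of replicates 1 from their group means 0.12 over genes), and the block left Gpx4 at -0.96 and Por at -0.79. Signs turned for Slc3a2 with no filter (-0.012), without knockout replicate 1 for Slc7a11 (-0.54) and Slc3a2 (-0.02), without knockout replicate 2 for Aifm2 (0.13), Acsl4 (0.11) and Lpcat3 (0.10), without wild type replicate 1 for Slc3a2 (-0.21), Dhodh (-0.21), Acsl4 (0.28) and Acsl3 (0.020), and without wild type replicate 2 for Gch1 (0.15) and Lpcat3 (0.29). The full ranges with a library left out were -0.54 to 1.10 for Slc7a11, -0.21 to 0.28 for Slc3a2, -0.35 to 0.13 for Aifm2, -0.99 to 0.15 for Gch1, -0.21 to 1.01 for Dhodh, -0.31 to 0.28 for Acsl4, -0.42 to 0.020 for Acsl3 and -0.41 to 0.29 for Lpcat3. The cause was not tested. The mean of at least 5 CPM removed Slc7a11, which depth limits most.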
